A study of Mus musculus with 4 samples.

Results

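The 6 genes described here are Ptch1, Smo, Hhip, Gli1, Gli2 and Gli3, the receptors, inhibitor and transcription factors of the Hedgehog pathway. They were chosen by gene symbol, and all 6 were found among the 20299 genes listed for this series. Gene-level RNA signal was measured in gonads of mouse fetuses at 15.5 days post coitum (dpc) in 4 groups of 1 library each: male somatic, female somatic, male germ and female germ cells. All fetuses came from CF1 mothers mated with TgOG2 fathers, so every group carries a transgene in which the Oct4 (Pou5f1) promoter drives enhanced green fluorescent protein (GFP). Germ cells are the GFP-positive fraction of a flow sort, and somatic cells are the GFP-negative remainder of the gonad, which holds supporting, steroidogenic, stromal, vascular and blood cells together. The sources used here do not say how many fetuses went into a library.

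In the Hedgehog pathway a secreted ligand binds Patched receptors on the cell surface, which releases Smoothened from inhibition and lets GLI transcription factors activate their targets. Ptch1, Hhip and Gli1 are themselves targets of the pathway, so their transcripts are widely used as a readout of its activity. In the fetal mouse testis Sertoli cells secrete Desert hedgehog, the product of Dhh, and the receiving cells are precursors of fetal Leydig cells and other interstitial and peritubular cells.

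Levels are given in SPM, the deposited signal per 1000000 of a library total adjusted by trimmed-mean scaling. Depth, estimated from the spacing of the deposited values, was 17.5 to 24.9 M fragments (M stands for 1000000), and 3 fragments were worth 0.113 to 0.180 SPM. Brackets after a level or a ratio give exact 95% intervals, which cover counting error only because each group has 1 library. The labels were checked against marker genes. The 11 germ cell markers summed to 92.5 SPM in male somatic, 53.0 in female somatic, 8462 in male germ and 5120 in female germ cells. Pou5f1, whose promoter drives the reporter, stood at 4.75, 0.0195, 497 and 34.5 SPM in the same order of libraries. The 10 Sertoli markers summed to 747 SPM in male and 47.7 in female somatic cells, and the 9 pregranulosa markers to 123 SPM in male and 1312 in female somatic cells. The 10 erythroid markers summed to 59917 SPM in male and 22194 in female somatic cells, so blood RNA made up a larger part of the male somatic library. Markers of mesonephric duct (12.3 SPM in male and 78.5 in female somatic cells) and of leukocytes (152 and 50.9 SPM) were minor.

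Promoter sequence is shown for 3 genes with different patterns in the somatic libraries: Ptch1 and Hhip, which were high in male somatic cells, and Smo, which stood at nearly the same level in both. Each window runs from 250 bases before to 50 bases after the annotated start, on the gene's own strand, and comes from RefSeq on GRCm38.p6, a later build than the one used for the gene positions. Windows were matched for 5 of the 6 genes, all but Gli1. Capitals mark the core CCACCC, or GGGTGG on the other strand, of the GLI binding motif. The Ptch1 window lies on the minus strand at chr13:63565686-63565985, the Hhip window on the minus strand at chr8:80057959-80058258, and the Smo window on the plus strand at chr6:29735247-29735546.
Ptch1: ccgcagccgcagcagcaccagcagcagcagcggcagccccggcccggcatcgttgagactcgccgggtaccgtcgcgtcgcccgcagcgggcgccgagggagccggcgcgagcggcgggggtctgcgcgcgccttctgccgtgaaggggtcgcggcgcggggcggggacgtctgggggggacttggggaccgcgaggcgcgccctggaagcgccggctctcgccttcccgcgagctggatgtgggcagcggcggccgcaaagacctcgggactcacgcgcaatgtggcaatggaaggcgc
Hhip: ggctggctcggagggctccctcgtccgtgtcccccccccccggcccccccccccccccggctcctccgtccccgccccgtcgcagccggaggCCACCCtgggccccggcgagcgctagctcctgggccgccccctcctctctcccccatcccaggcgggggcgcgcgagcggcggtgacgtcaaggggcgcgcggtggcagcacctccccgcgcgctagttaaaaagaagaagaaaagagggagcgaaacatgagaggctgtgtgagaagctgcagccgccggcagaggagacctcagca
Smo: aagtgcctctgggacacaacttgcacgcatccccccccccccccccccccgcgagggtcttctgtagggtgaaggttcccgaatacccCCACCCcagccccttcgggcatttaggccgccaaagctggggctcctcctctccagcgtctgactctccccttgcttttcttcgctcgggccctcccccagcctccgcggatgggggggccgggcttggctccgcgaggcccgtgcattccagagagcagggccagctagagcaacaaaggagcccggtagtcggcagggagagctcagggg

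The full GLI motif GACCACCCA, searched on both strands, was found in none of the 5 windows and in 0.253% of 32851 RefSeq promoter windows of the same length. Its core CCACCC, which lies within the full motif, occurred in 31.5% of all windows. Hhip, Smo and Gli3 had 1 core match each, Gli2 had 2 and Ptch1 had 0. The core of Hhip began 158 bases and that of Smo 162 bases before the start. All 5 windows held more CpG, the dinucleotide that DNA methylation acts on, than the median of 7 over all windows. The Ptch1 window held 47 CpG, more than 98.6% of all windows. Gli3 held 39 (more than 95.6%), Hhip 30 (88.3%), Gli2 28 (85.8%) and Smo 17 (68.6%). These matches describe letters in the windows and were not tested for function.

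Transcripts of the pathway's own targets were concentrated in male somatic cells. Ptch1, which encodes the ligand receptor and is located on chromosome 13 (63612840 to 63666828, minus strand, mm9), measured 223 SPM (216 to 231) in male somatic cells, 22.7 SPM (20.8 to 24.6) in female somatic cells, 41.0 SPM (38.6 to 43.5) in male germ cells and 22.7 SPM (20.4 to 25.1) in female germ cells. The male somatic library thus stood far above all other libraries, and the female somatic and female germ libraries could not be told apart by their counting intervals. Hhip encodes a membrane protein that binds and sequesters the ligands, and lies on chromosome 8 (82489749 to 82581907, minus strand). It measured 69.3 SPM (65.3 to 73.4) in male somatic cells, 1.9 SPM (1.41 to 2.54) in female somatic cells, 1.45 SPM (1.04 to 2.00) in male germ cells and 1.19 SPM (0.731 to 1.85) in female germ cells. The intervals of female somatic, male germ and female germ cells overlapped, and 93.8% of the summed level of the 4 libraries lay in male somatic cells. Gli1, the GLI factor that acts only as an activator, lies on chromosome 10 (126766937 to 126778635, minus strand). It measured 62.7 SPM (59.0 to 66.6) in male somatic cells, 3.22 SPM (2.57 to 4.02) in female somatic cells, 5.14 SPM (4.32 to 6.08) in male germ cells and 0.660 SPM (0.328 to 1.18) in female germ cells. Its 4 intervals did not overlap, with male somatic highest and female germ lowest, and 87.4% of the sum lay in male somatic cells. The Gli1 gene overlaps the 3′ end of Arhgap9 on the opposite strand by 63 bases. Arhgap9 measured 6.63, 2.12, 14.7 and 0.917 SPM in male somatic, female somatic, male germ and female germ cells, and the sources used here do not state whether counting used strand.

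Smo and Gli3 gave a different picture, with almost the same level in both somatic libraries. Smo, the signal transducer that Patched holds inactive, lies on chromosome 6 (29685496 to 29711366, plus strand). It measured 357 SPM (348 to 366) in male somatic cells, 376 SPM (368 to 383) in female somatic cells, 33.6 SPM (31.4 to 35.9) in male germ cells and 48.9 SPM (45.6 to 52.3) in female germ cells. Both somatic libraries were far above both germ libraries. Gli3, the GLI factor that serves largely as a repressor when ligand is absent, lies on chromosome 13 (15555555 to 15821858, plus strand). It measured 77.9 SPM (73.7 to 82.3) in male somatic cells, 74.2 SPM (70.8 to 77.6) in female somatic cells, 40.7 SPM (38.3 to 43.2) in male germ cells and 53.0 SPM (49.5 to 56.5) in female germ cells. It had the flattest profile of the 6 genes, with 31.7% of the summed level in male somatic cells. Gli2, the main activator of the initial response, lies on chromosome 1 (120730637 to 120950196, minus strand) and fell between these patterns. It measured 71.5 SPM (67.5 to 75.7) in male somatic cells, 21.7 SPM (19.9 to 23.6) in female somatic cells and 0.521 SPM (0.287 to 0.882, 14 fragments) in male germ cells, while the female germ library lists it at 0. For Smo, Gli2 and Gli3 both somatic levels lay above both germ levels, also by their intervals. For Hhip the female somatic interval overlapped those of the germ libraries, and for Ptch1 and Gli1 the male germ level lay above the female somatic one.

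**Figure D1:**
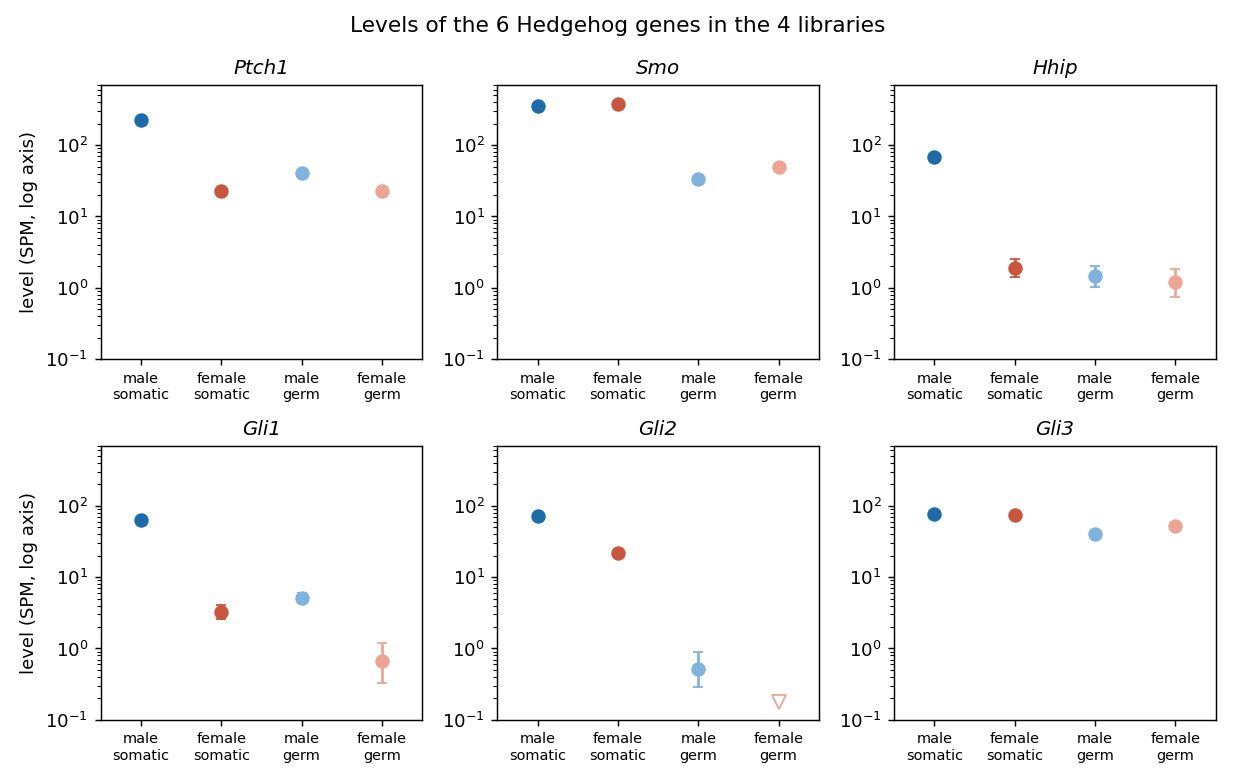
Level of each of the 6 genes in SPM on a log axis in the 4 libraries, with the exact 95% counting interval as the bar; the open triangle marks a library listed at 0, drawn at its 3-fragment limit. Ptch1, Hhip and Gli1 stand highest in male somatic cells (223, 69.3 and 62.7 SPM), while Smo and Gli3 are level between the somatic libraries (357 against 376 SPM and 77.9 against 74.2 SPM).

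Genes can be compared with one another only after division by transcript length. Per kilobase, Smo had the highest level of the 6 genes in both somatic libraries, at 89.5 SPM per kilobase in male and 94.2 in female somatic cells. Ptch1 followed in male somatic cells at 51.6 SPM per kilobase, against 5.23 in female somatic cells, where Gli3 stood above it. The order within the GLI family differed between the sexes. In male somatic cells Gli1 led at 17.1 SPM per kilobase, ahead of Gli2 at 10.6 and Gli3 at 9.23. In female somatic cells Gli3 led at 8.79 SPM per kilobase, ahead of Gli2 at 3.22 and Gli1 at 0.876. Gli3 was also the leading family member in male germ cells (4.82 SPM per kilobase, against 1.40 for Gli1 and 0.0775 for Gli2) and in female germ cells (6.27, against 0.180 for Gli1 and 0 for Gli2). These orders have no replicate check.

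The comparison of male with female somatic cells asks how the pathway differs between fetal testis and ovary. Hhip was 36.5-fold (27.1 to 49.3), Gli1 19.5-fold (15.5 to 24.6) and Ptch1 9.86-fold (9.02 to 10.8) higher in male somatic cells. These 3 of the 6 genes passed the size rule, a 4-fold difference with 5 SPM or more on the higher side, which 3.0% of 11835 genes passed in this direction, and 0 of 6 passed in the other direction, as did 3.17% of genes. Gli2 was 3.30-fold (2.98 to 3.67) higher in male somatic cells, short of that rule. Gli3 had a ratio of 1.05 (0.978 to 1.13) and Smo of 0.9498 (0.919 to 0.981), male over female. Ordered by male excess among the 11835 genes, Hhip stood at place 59, Gli1 at 84, Ptch1 at 138, Gli2 at 475, Gli3 at 5296 and Smo at 6761. The median log2 ratio of the 6 genes was 2.51, against 0.01 over all genes. With 1 library a side there is no test, and the ratios compare these libraries.

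The cell makeup of the somatic libraries differed as well. The 11 stroma markers summed to 16473 SPM in male and 6149 SPM in female somatic cells, 2.68-fold more, and their median log2 ratio was 1.67. None of them passed 4-fold, and the ratio was 3.68 for Dcn and 3.56 for Col1a2. The 8 fetal Leydig markers summed to 1141 SPM in male and 375 SPM in female somatic cells. Of the 7 at 5 SPM or more in a somatic library 3 passed the size rule toward male somatic cells and 0 toward female ones. Over all genes 3.0% and 3.17% did, and the median log2 ratio of the 7 was 1.76. Cyp11a1 and Cyp17a1, which encode enzymes of steroid synthesis, were 192-fold and 60.5-fold higher in male somatic cells, while Nr5a1, a regulator that ovarian somatic cells also express, had a ratio of 1.15. Fewer cells of a type and less RNA per cell cannot be told apart in these bulk libraries, and the part of cell makeup in the ratios of the 6 genes was not tested.

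**Figure D2:**
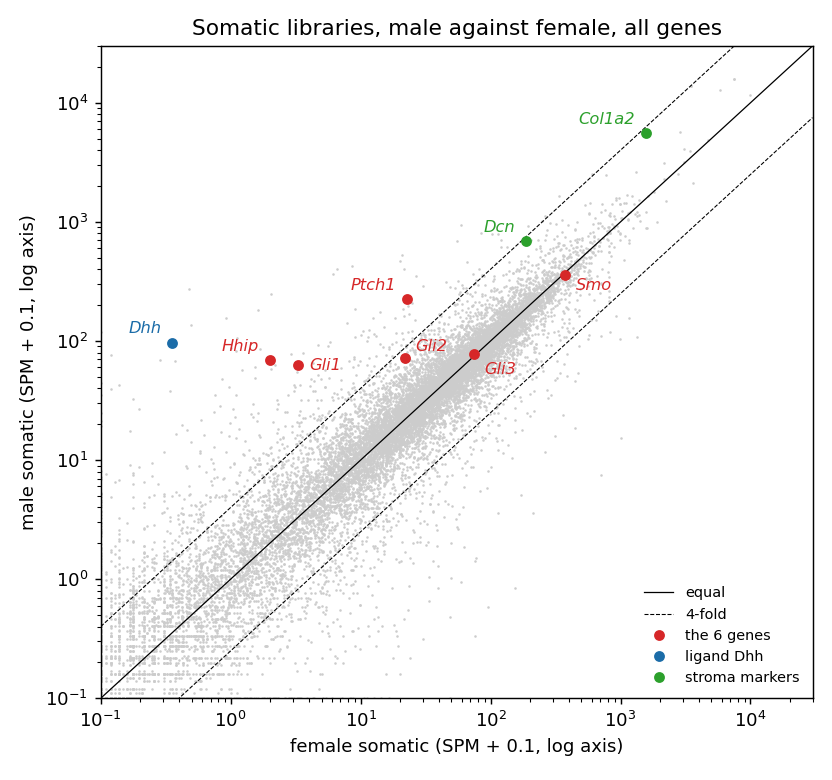
Male somatic against female somatic level of every gene, in SPM + 0.1 on log axes, with the line of equality and the 4-fold lines; the 6 genes are red, the ligand gene Dhh is blue and the stroma markers Dcn and Col1a2 are green. Hhip, Gli1 and Ptch1 lie beyond the 4-fold line on the male side, Gli2 lies just inside it at 3.30-fold, and Smo and Gli3 lie on the line of equality.

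The ligand gene with the largest difference was Dhh. It measured 96.9 SPM in male somatic cells, 0.253 SPM in female somatic cells, 2.48 SPM in male germ cells and 0.296 SPM in female germ cells. The male over female somatic ratio was 383 (185 to 1104), on 6 fragments in female somatic cells. Of the other ligand genes, Ihh measured 1.30 SPM in male somatic, 0.146 in female somatic, 16.0 in male germ and 3.12 in female germ cells, so its highest level was in male germ cells. Shh stood at 0.118, 0, 0.567 and 1.34 SPM in the same order. Scube1 and Scube2 encode secreted proteins, of which SCUBE2 aids ligand release. Scube1 measured 252 SPM in male against 65.2 SPM in female somatic cells, and Scube2 0.817 against 8.57 SPM. By the size rule 1 of 5 ligand and release genes, Dhh, was higher in male somatic cells and 1, Scube2, was lower. Over all genes 3.0% were higher and 3.17% lower by this rule.

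The other surface receptors were mixed between male and female somatic cells, and no intracellular regulator passed 4-fold. Cdon, Boc and Gas1 encode co-receptors that help ligand reach Patched and are known in other tissues to be repressed by the pathway. Cdon measured 234 SPM in male and 278 SPM in female somatic cells, a ratio of 0.843. Boc measured 152 SPM in male and 246 SPM in female somatic cells, a ratio of 0.616 (0.588 to 0.646), and Gas1 71.1 and 101 SPM, a ratio of 0.704 (0.656 to 0.754). Cdon, Boc and Gas1 were thus lower in male somatic cells, by less than the size rule asks. Whether the pathway represses them in these cells was not tested. Gpc3 went the other way, at 703 SPM in male and 195 SPM in female somatic cells. Of the 8 receptor genes 1, the glypican gene Gpc6, passed the size rule, at 82.8 SPM in male and 20.01 SPM in female somatic cells. Over all genes 3.0% passed in this direction. The median log2 ratio of the 8 was -0.17. Of 25 regulators 0 passed in either direction, with a median of -0.03. Sufu, the main cytoplasmic inhibitor of the GLI proteins, measured 16.8 SPM in male and 22.1 SPM in female somatic cells. Kif7, the ciliary kinesin of the pathway, measured 37.0 and 27.9 SPM.

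Other genes reported to respond to GLI factors were mixed. Of the 17 at 5 SPM or more in a somatic library, 4 passed the size rule toward male somatic cells and 0 toward female ones. Over all genes 3.0% and 3.17% did, and the median log2 ratio of the 17 was 0.62. Jag1, a Notch ligand, measured 208 SPM in male and 24.7 SPM in female somatic cells, 8.43-fold (7.73 to 9.19). Osr2, a zinc finger transcription factor, measured 51.7 and 4.57 SPM, 11.3-fold (9.32 to 13.9). Spp1, which encodes osteopontin, measured 26.6 and 0.934 SPM, 28.4-fold (19.1 to 46.2), and Hsd11b2, a glucocorticoid-inactivating enzyme, 46.3 and 10.5 SPM, 4.41-fold (3.83 to 5.09). The cell cycle genes of the list lay on both sides, with male over female ratios of 0.403 for Cdk6, 0.556 for Ccnd1, 0.894 for Ccnd2, 1.24 for Cdc25b and 2.57 for Foxm1. Bcl2, the survival gene, had a ratio of 1.02 (0.937 to 1.11).

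**Figure D3:**
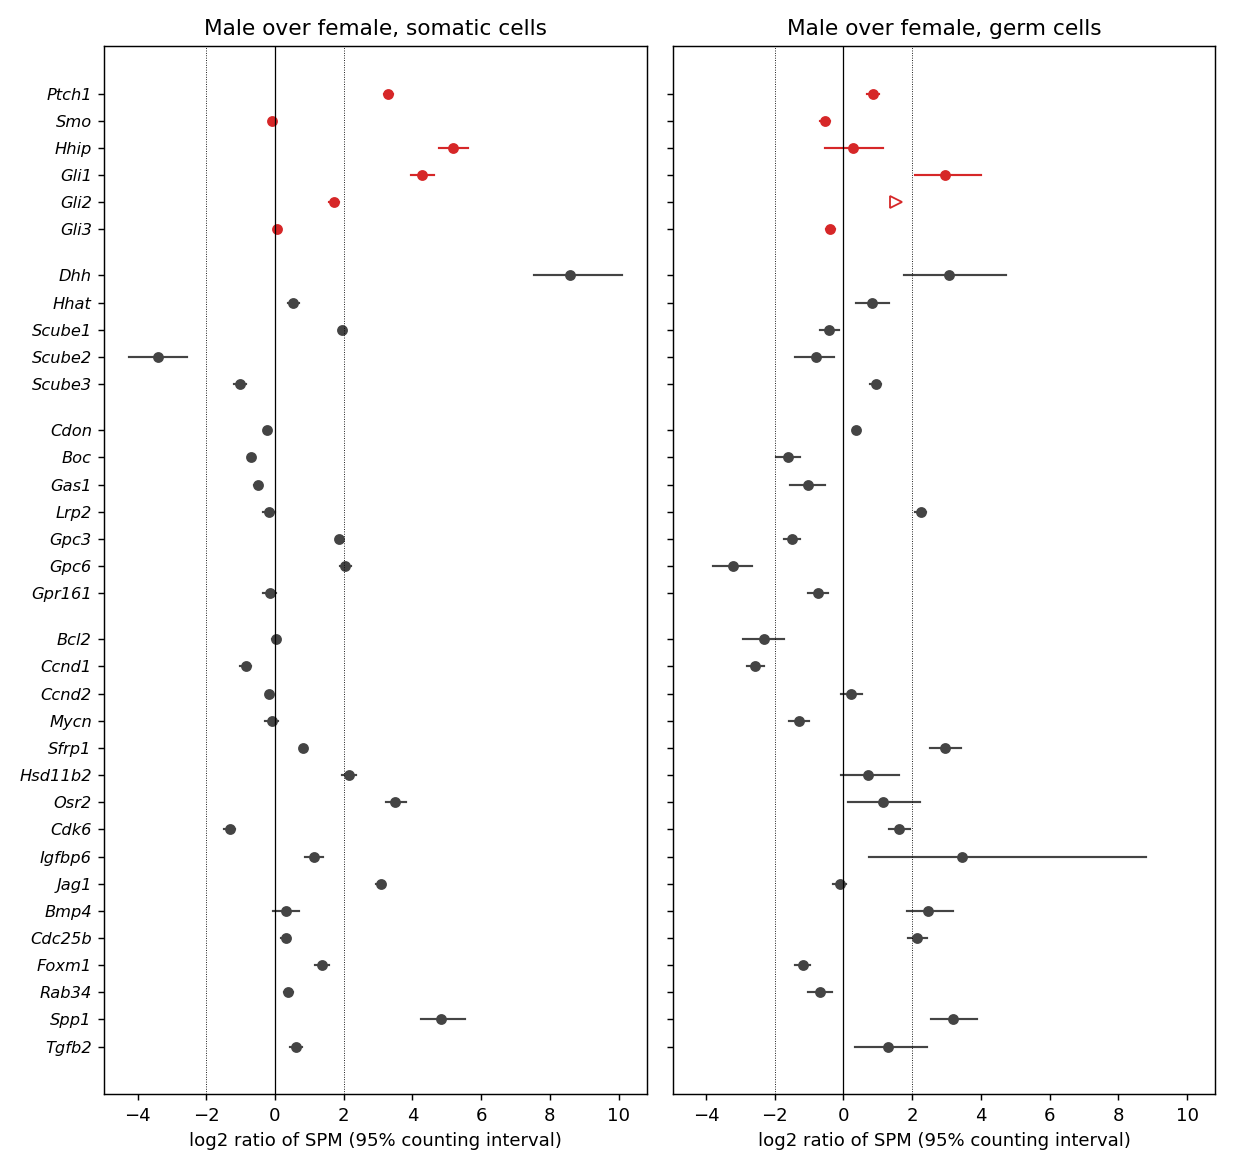
Male over female log2 ratio in somatic cells (left) and germ cells (right), with 95% counting intervals, for the 6 genes (red) and, in grey, the ligand and release genes, most surface receptors and GLI-responsive genes at 5 SPM or more in a somatic library; dotted lines mark 4-fold and the open triangle a lower bound. In somatic cells Ptch1, Hhip, Gli1 and Dhh lie right of the upper dotted line, and Cdon, Boc and Gas1 lie left of equality.

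Somatic and germ cells were compared over both sexes, with 2 libraries for each cell type. Smo and Gli2 were higher in somatic cells, and the other 4 genes did not pass the test. Smo averaged 366 SPM in somatic and 41.2 SPM in germ cells, a log2 difference of 3.16 ± 0.40 (SE, n = 2 libraries each; limma adjusted p = 0.0336). Gli2 averaged 46.6 SPM in somatic and 0.261 SPM in germ cells, a fitted log2 difference of 5.81 ± 0.90 (limma adjusted p = 0.0359), which depends on the pseudocount of 0.5 SPM. The background was 5.56% of 14148 genes higher in somatic cells, and 0 of the 6 genes were lower, as were 2.50% of all genes. The median log2 difference of the 6 genes was 2.71, against 0.11 over all genes. Both calls were lost without either somatic library (limma adjusted p = 0.156 without male somatic and 0.152 without female somatic cells for Smo, and 0.117 and 0.0556 for Gli2), and that of Gli2 also without female germ cells (0.0657). Without a filter on low genes the limma adjusted p was 0.0637 for Smo and 0.0755 for Gli2.

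Hhip differed by 2.83 ± 1.65 on the log2 scale (limma adjusted p = 0.303), Gli1 by 2.58 ± 1.59 (0.328), Ptch1 by 1.21 ± 1.14 (0.514) and Gli3 by 0.71 ± 0.42 (0.314), somatic minus germ. For Hhip, Gli1 and Ptch1 the wide errors go with the distance between the 2 somatic libraries given above. For Gli1 the germ libraries also lay apart, at 5.14 SPM in male and 0.660 SPM in female germ cells. Its difference was 3.72 without male germ and 1.44 without female germ cells. Without the male somatic library the Ptch1 difference was -0.42 (limma adjusted p = 0.927). Nothing in the labels says that libraries of one sex or cell type came from separate animals, so each p-value reflects no more than the spread among the 4 libraries.

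Within the male gonad 5 of the 6 genes passed the size rule toward somatic cells, all but Gli3, where 18.4% of 12636 genes did, and 0 passed in the other direction, as did 12.4% of genes. The male somatic over male germ ratios were 137 (80.8 to 249.9) for Gli2, 47.6 (34.4 to 66.9) for Hhip, 12.2 (10.2 to 14.7) for Gli1, 10.6 (9.90 to 11.4) for Smo, 5.45 (5.09 to 5.83) for Ptch1 and 1.91 (1.76 to 2.08) for Gli3. Within the female gonad Smo was 7.69-fold (7.16 to 8.27) and Gli2 at least 121-fold higher in somatic cells, so 2 of the 4 genes at 5 SPM or more passed the rule, against a background of 23.6%, and 0 passed toward germ cells, against 12.5%. Ptch1 had a female somatic over female germ ratio of 0.999 (0.876 to 1.14), and Gli3 of 1.40 (1.29 to 1.52). Hhip and Gli1 were below 5 SPM in both female libraries, with ratios of 1.59 (0.933 to 2.85) and 4.88 (2.61 to 10.2).

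The other pathway genes were tested in the same fit, which called 5.56% of all genes higher and 2.50% lower in somatic cells. Of 8 surface receptor genes 4 were higher in somatic cells and 0 lower: Boc by 4.69 ± 0.69 on the log2 scale, Gas1 by 4.55 ± 0.64, Gpc3 by 4.44 ± 0.83 and Cdon by 2.03 ± 0.39 (limma adjusted p = 0.0353, 0.0352, 0.0441 and 0.0452). Of 25 regulators 1 was higher, Evc, which encodes a ciliary partner of Smoothened (3.02 ± 0.58, limma adjusted p = 0.0459), and 0 were lower. This 1 of 25 is close to the share over all genes. Of 19 GLI-responsive genes tested 3 were higher and 0 lower: the cyclin gene Ccnd2 by 4.40 ± 0.44, the growth factor gene Tgfb2 by 3.998 ± 0.73 and Igfbp6 by 3.89 ± 0.78 (limma adjusted p = 0.0328, 0.0429 and 0.0493). Of 6 ligand and release genes 0 passed in limma. Among genes at 5 SPM in 2 libraries, Hhat and Scube1 of the 3 tested were called higher, as were 1066 of all 11774 genes. A sex term, which pairs libraries of one sex, gave Hhat and Scube1 as higher and Ihh as lower. Over all 14148 genes that fit called 1955 higher and 1094 lower, and the other lists here also gained calls. Without the mean-variance trend Hhat alone was called higher, beside 907 of all genes. Without the male somatic library, without the female somatic library or without a filter on low genes, 0 genes of these lists passed. The Cdon call was also lost under each of the 3 other scalings and without the mean-variance trend, and that of Gpc3 without the trend and without either germ library. Evc was lost under upper-quartile scaling, Tgfb2 under upper-quartile scaling and without female germ cells, and Igfbp6 under both of these, median-of-ratios scaling and a pseudocount of 0.1.

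The germ libraries held signal of the pathway at levels that differed from gene to gene. As a share of the somatic library of the same sex, male germ cells had 52.2% of the Gli3 level, 18.4% of Ptch1, 9.41% of Smo, 8.19% of Gli1, 2.10% of Hhip and 0.729% of Gli2. The same share was 1.38% for the summed stroma markers (0.543% to 23.9% by gene) and 6.15% for the summed fetal Leydig markers (2.05% to 26.2%). It was 9.37% for the summed Sertoli markers (2.56% to 222%), 23.7% for the pregranulosa markers (1.93% to 190%) and 32.1% for the endothelial markers (3.83% to 126%). The 222% belonged to Dmrt1, at 16.4 SPM in male somatic and 36.3 SPM in male germ cells. Dmrt1 thus made up much of the Sertoli sum of 70.0 SPM in male germ cells. Female germ cells had 71.4% of the somatic level of Gli3, 13.0% of Smo and 100.1% of Ptch1. The share there was 1.06% for the summed stroma, 2.87% for the pregranulosa and 4.82% for the fetal Leydig markers. It was 11.5% for the endothelial and 55.4% for the Sertoli markers. None of the 11 stroma markers was listed at 0 in a germ library. Among all 20299 genes 1942 were listed at 0 in male germ and 4607 in female germ cells. A level above 0 was thus common in both germ libraries. The part of somatic RNA in the germ levels was not tested.

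**Figure D4:**
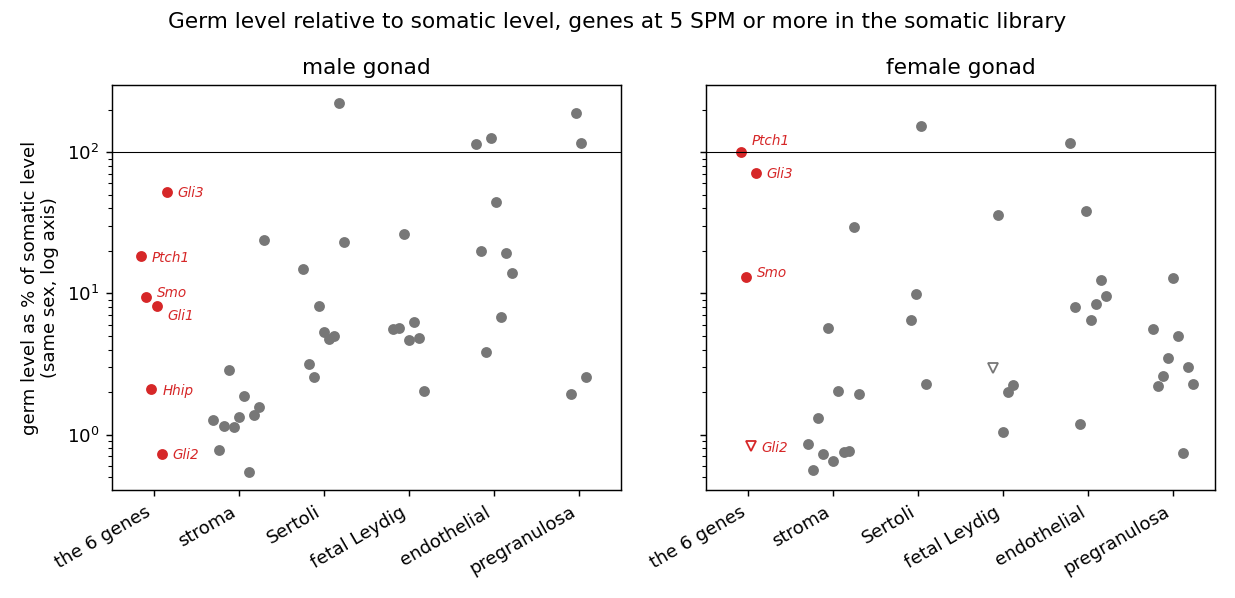
Germ level as a percentage of the somatic level of the same sex, on a log axis, for genes at 5 SPM or more in that somatic library; red points are the 6 genes, grey points are marker genes by list, and open triangles are upper limits for genes listed at 0. In male gonads Gli3 (52.2%) and Ptch1 (18.4%) stand above most stroma markers, while Gli2 (0.729%) stands among them.

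Between male and female germ cells Gli1 alone passed the size rule, of 4 genes at 5 SPM or more in a germ library. It was 7.78-fold (4.23 to 16.0) higher in male germ cells, on 137 fragments in male and 11 in female germ cells. The rule was passed by 14.0% of 11766 genes in this direction and by 10.0% in the other, so 1 of 4 is close to the background. Ptch1 had a male over female ratio of 1.81 (1.61 to 2.04), Smo of 0.687 (0.624 to 0.757) and Gli3 of 0.769 (0.703 to 0.842). Hhip (1.22, 0.697 to 2.21) and Gli2 (at least 2.90) were below 5 SPM in both germ libraries. Somatic markers also differed between the germ libraries. The summed stroma markers stood at 228 SPM in male and 65.2 SPM in female germ cells. Fetal Leydig markers stood at 70.2 and 18.1 SPM, Sertoli markers at 70.0 and 26.4 SPM, and pregranulosa markers at 29.1 and 37.7 SPM. Of the Sertoli sums, Dmrt1 alone held 36.3 SPM in male and 8.53 SPM in female germ cells. The part of somatic RNA in the ratios between the germ libraries was not tested.

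Other pathway genes differed in both directions between male and female germ cells. Over all genes 14.0% passed the size rule toward male and 10.0% toward female germ cells. Ihh was 5.12-fold (3.84 to 6.98) higher, and Lrp2, which encodes the endocytic receptor megalin, stood at 107 SPM in male and 22.5 SPM in female germ cells. Arrb2, which encodes a beta-arrestin, measured 262 SPM in male and 34.1 SPM in female germ cells, 7.68-fold (7.05 to 8.38). It was the 1 regulator of 25 past 4-fold, a share below that of all genes. Kif7 was 3.41-fold (2.97 to 3.94) higher in male germ cells. On the other side, Gpc6 measured 1.198 SPM in male and 11.2 SPM in female germ cells, past 4-fold. Short of the rule, the ubiquitin ligase gene Smurf2 measured 46.2 SPM in male and 178 SPM in female germ cells, and Prkacb, a catalytic subunit gene of protein kinase A, 26.2 and 93.9 SPM. Boc measured 3.94 SPM in male and 12.1 SPM in female germ cells, and Sufu 3.48 and 9.40 SPM. Of 7 receptor genes 2 passed toward male and 1 toward female germ cells, with a median log2 ratio of -0.75, and the median of the 25 regulators was -0.02. Of 14 GLI-responsive genes 6 passed toward male germ cells, among them Bmp4, Cdc25b, Foxf1a, Sfrp1 and Spp1, and 2 toward female germ cells (Bcl2 and Ccnd1). Foxf1a measured 6.52 SPM in male germ cells, at least 36.3-fold more than in female germ cells, which list it at 0.

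Genes nearest in pattern were taken as those with the smallest Euclidean distance between centred log2(SPM + 0.5) profiles over the 4 libraries, among 13256 genes at 5 SPM or more in a library. They are given for Smo and Gli3, whose levels lie far above the added 0.5 SPM in every library. Nearest to Smo were Gbas (0.12) and Scd1 (0.15), beside 1 row whose symbol is altered in the files. Gbas measured 115 SPM in male somatic, 123 in female somatic, 11.8 in male germ and 16.3 in female germ cells. Nearest to Gli3 were Cast (0.051), Whsc1l1 (0.055) and Phf6 (0.060). Cast, which encodes the calpain inhibitor calpastatin, measured 41.8, 37.9, 21.2 and 27.5 SPM in the same order of libraries.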

How the data were processed

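RNA was sequenced from 4 sorted fractions, 1 library each. Per the labels' protocols, total RNA was depleted of ribosomal RNA and sequenced as strand-specific paired-end libraries. CASAVA 1.9, TopHat 1.2.0, edgeR and the mm9 build are named, without roles, in the submitters' processing notes; the counting program, annotation and strand use were not given in the sources used here. Deposited values are a gene-level signal, although the file headers call the column counts. All are integers, yet small values gather at multiples of 4.105 to 6.115 (43.2% to 54.2% of values up to 60 lay near one, against 15% to 23.3% by chance), so a scaling factor per library was inferred and count models were not used. One such step was read as 1 fragment, and intervals and 3-fragment floors rest on that estimate.

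Repeated rows (74 of 20373) were removed and signals scaled by trimmed-mean (TMM) totals to SPM. Somatic and germ libraries were compared with limma 3.58.1 in R 4.3.3 (mean-variance trend, log2(SPM + 0.5), genes at 1 SPM in at least 2 libraries, Benjamini-Hochberg threshold 0.05, 2 residual degrees of freedom), a fit tested on simulated data. The pseudocount shrinks fold changes of low genes. Ratios between single libraries carry exact conditional binomial 95% intervals and no test; single levels carry exact Poisson ones. Duplicate reads from PCR could not be identified. Near-identical copies were not resolved.

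The 6 genes and all lists were chosen with earlier results of these data known. Every gene of the ligand, receptor, regulator and GLI-responsive lists could be named. Of marker and cilium lists, genes with large ratios were named, but not always the largest, and Pou5f1, Nr5a1 and Dmrt1 were named besides. For each of the 6 genes the 3 nearest in pattern could be named. They were printed only where the pseudocount does not set the profile (a limit added after the values were seen). Some genes of these lists are counted but not reported by name here. Other scalings, pseudocounts, filters, a sex term and left-out libraries were tried.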

Additional observations from a re-analysis of the deposited data

Results flagged for a closer look

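Each of these results has ratios that point in opposite directions in the 2 cell types or sexes compared. With 1 library a group the difference between the ratios was not tested. Gli3 had a male over female ratio of 1.05 in somatic cells, whose interval of 0.978 to 1.13 includes 1, and of 0.769 in germ cells. Ptch1 had a somatic over germ ratio of 5.45 in males and of 0.999 in females, where the interval of 0.876 to 1.14 includes 1. The glypican gene Gpc3 had a male over female ratio of 3.60 in somatic cells and 0.355 in germ cells. Gpc6, a related glypican gene, had ratios of 4.14 in somatic and 0.107 in germ cells. Cdk6, which encodes a cell cycle kinase, had ratios of 0.403 in somatic and 3.08 in germ cells. Foxm1, a transcription factor of the cell cycle, had ratios of 2.57 in somatic and 0.439 in germ cells.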

How the results depend on the processing

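Over all genes, limma called 786 higher and 354 lower in somatic than in germ cells. Without a filter on low values it called 0 and 0 of 18703 genes, with 2600 higher and 2025 lower at an unadjusted p under 0.05. The labels carry no replicate numbers; with sex as a term, the block that pairs libraries of one sex, the calls were 1955 and 1094, and Smo (adjusted p = 0.000588) and Gli2 (0.000118) stayed the 2 called genes of the 6. Leaving out 1 library each gave 21 to 1927 higher and 37 to 1670 lower; the lone remaining library was assumed to vary like the others. Higher calls numbered 21 without male somatic, 37 without female somatic, 1927 without male germ and 981 without female germ cells, and lower calls 43, 37, 1670 and 820. Genes past the size rule between male and female somatic cells (355 higher, 375 lower) became 1137 and 978 at 2-fold, 595 and 601 at a minimum of 1 SPM, and 213 and 193 at 20 SPM. Between male and female germ cells 1649 higher became 3148, 2737 and 856, and 1180 lower became 3094 at 2-fold. Upper-quartile scaling gave 2103 higher and 861 lower germ cell genes and moved the median gene by 0.25 on the log2 scale. Library totals moved the somatic median by -0.12 and the germ median by 0.15, and upper-quartile scaling the somatic against germ median by -0.15. Ptch1, Hhip and Gli1 passed the somatic size rule under all 4 scalings. The Gli3 somatic log2 ratio was -0.060 under library totals, against 0.07, and the Ptch1 difference ranged from -0.42 (without male somatic cells) to 2.85 (without female somatic cells) when 1 library was left out. Of the other values of the 6 genes under the alternatives, 105 kept direction and call or stayed within their interval. Another 11 left the interval or had none, because the main value was a lower bound (Gli2 between male and female germ cells). A further 7 kept direction and lost the call (Smo and Gli2, given above). Depth limits Hhip in all libraries but male somatic, Gli1 in female germ and Gli2 in both germ libraries, each at under 60 fragments.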

Other observations

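The primary cilium, on which Smoothened signalling depends in mammals, was described with 38 genes. In limma 0 were higher (against 5.56% of all genes) and 2 were lower (against 2.50% of all genes) in somatic than in germ cells: Ift74 (25.9 SPM in male somatic, 22.9 in female somatic, 163 in male germ and 131 in female germ cells, limma adjusted p = 0.0374) and Ift122 (73.4, 97.3, 305 and 429.5 SPM in the same order, limma adjusted p = 0.0465). Both encode subunits of intraflagellar transport. Both calls were lost without either somatic library and without a filter on low genes, and that of Ift122 also without the mean-variance trend and without female germ cells. The median log2 difference of the list was -0.67, against 0.11 over all genes. Tulp3 had the largest absolute difference of the list, 3.19 ± 0.91 toward somatic cells, and was not called (limma adjusted p = 0.0882). Between male and female somatic cells 0 of 38 passed the size rule, with a median log2 ratio of -0.11. Between male and female germ cells 2 of 38 were higher (against 14.0% of all genes) and 5 were lower (against 10.0% of all genes), the second share close to that background. Tulp3 stood at 11.5 SPM in male and 2.01 SPM in female germ cells, Tctn3 at 23.6 against 5.25 SPM, Ofd1 at 62.8 SPM in male and 387 SPM in female germ cells and Cep290 at 42.0 against 238 SPM.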
